A study of Mus musculus with 32 samples.

Results

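The comparison set the embryonic whole gut against the newborn gut of the same mouse line. The embryonic side was 2 libraries of whole gut, stomach and intestine together, dissected from embryos at E14.5 (an embryonic day, timed by the vaginal plug). The newborn side was 8 libraries from P1 (postnatal day 1): whole stomach, top intestine, bottom intestine, and colon with rectum. Each tissue at each age had 1 wild-type and 1 percc1-/- library, so these were 10 of the 32 libraries of the series. The other 22 libraries, from P5 to P20, served only to place the differences among later ages. The percc1-/- allele was a loxP site in place of 1512 bp at chr17:25175032-25176543 (mm9), made in 129S6 embryonic stem cells. In the GENCODE M1 annotation that interval overlapped Ift140 and none of its exons. All mice, wild type included, were of mixed 129SvEv and C57BL/6 background. The deletion was carried in the germline and so was not limited to a tissue. Gut contents were squeezed out, total RNA was depleted of ribosomal RNA, and stranded libraries were sequenced. The labels do not say whether libraries came from separate animals, so every p-value below measures only the spread between these samples.

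At mid-gestation the mouse gut is a muscular tube whose epithelium divides throughout its thickness, while the first villi begin to form and neural crest cells populate the wall. By birth the small intestine carries villi with absorptive, goblet and endocrine cells and begins to take up milk, and the stomach has pit and gland cells beside a squamous forestomach. Paneth cells and the adult crypt mature after birth. Percc1 is a gene known for its part in the formation of the endocrine cells that secrete gut hormones.

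A gene was said to lie above or below the P1 range when both E14.5 values, 1 from each genotype, lay beyond all 8 P1 values. FPKM is the number of fragments scaled to transcript length and library size. Of 13359 genes averaging 1 FPKM or more, 1790 lay above the range, which is 13.4% of the genes tested, and 1776 lay below it, which is 13.3%. A limma model tested the same contrast, E14.5 against the mean of the 4 P1 regions with genotype as a term. It called 1756 genes higher, or 13.1%, and 2253 lower, or 16.9%, at a Benjamini-Hochberg adjusted p under 0.05. Of the genes above the range 1251 (69.9%) were also called by limma, and of those below it 1415 (79.7%). The median difference over all genes was -0.0018 on the log2 scale, and 5723 genes had an unadjusted p under 0.05. The limma counts rest on having both embryos: without the percc1-/- embryo 362 genes were called higher and 681 lower, and without the wild-type embryo 910 and 1290. Higher and lower always mean E14.5 relative to P1. Where a pair of E14.5 values is given, percc1-/- comes first and wild type next, and values are rescaled FPKM. Differences are on the log2(FPKM + 1) scale, which understates the change of genes with low values. A gene active in 1 newborn region spans a wide P1 range, so a whole-gut value tends to fall within it. The limma contrast sets whole gut against an equal-weight mean of the log values of the 4 regions. Such a gene can therefore differ there without a change by age. Age and dissection, as whole gut or as regions, cannot be told apart in this comparison. Many genes named below were picked because they lay outside the range. For these, a statement that values did not overlap restates the choice and adds no support.

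**Figure D1:**
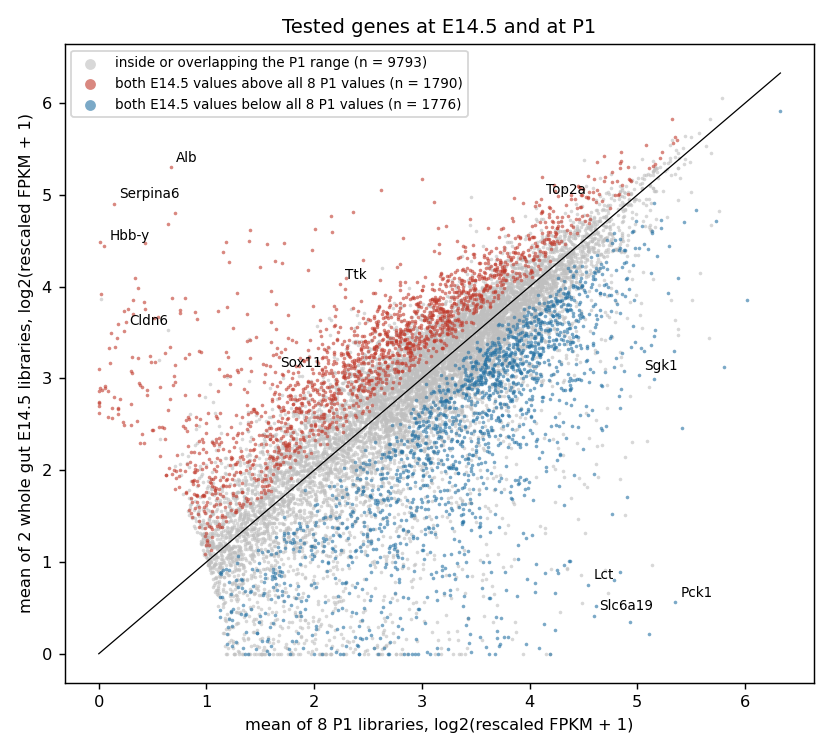
Each point is 1 of 13359 tested genes, with the mean of the 8 P1 libraries on the x axis and the mean of the 2 whole gut E14.5 libraries on the y axis, both as log2(rescaled FPKM + 1), and the diagonal marks equal levels. The 1790 genes above the P1 range lie above the diagonal and the 1776 below the range lie under it; liver and blood genes such as Alb and Hbb-y stand at the top left and Slc6a19 at the lower right.

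The tables hold no read counts, so the depth of each library is unknown. The factors that rescaled the 10 libraries ran from 0.939 to 1.104. The highest FPKM of any named record lay between 62.5 and 214.3, and records with a gene symbol held 16.8% to 26.3% of the summed FPKM, so levels span a narrow range at the top. Among 160 genes with a P1 mean over 30 FPKM, 38 lay below the range at E14.5 and 10 above. Among 162 genes with an E14.5 mean over 30 FPKM, 1 lay below and 57 above. Picking genes by a high mean at 1 age favours the direction in which that age is higher. Percc1 was not analysed by name here, and the deletion was checked by records inside the deleted interval. No wild-type library had one, and neither had the E14.5 pair. In 4 of the libraries labelled percc1-/- there were 5 unnamed records; 1 of these libraries is the P1 bottom intestine, with 1.34 FPKM (the table's own bounds 0.644 to 2.05) at chr17:25175876-25176463. Without that library, 1875 genes lay above the P1 range and 1844 below, and limma called 1365 higher and 1862 lower. Genes of another region were found in some P1 libraries, and the reason was not tested: the percc1-/- stomach read 4.23 FPKM of the intestinal factor Cdx2 and the wild-type stomach 0.186, and the percc1-/- top intestine read 32.7 FPKM of the stomach gene Gkn2 and the wild type 14.3.

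RNA of tissues beside the gut was present at E14.5, and most of it in both libraries. Red cell genes summed to 251 FPKM in percc1-/- and 331 in wild type, against 42.8 to 51.9 at P1. All 20 tested members of the list lay above the range, beside 13.4% of all tested genes. Hbb-y, an embryonic beta-like globin, read 21.6 and 20.05 FPKM at E14.5 and 0 to 0.101 at P1 (median 0). The second embryonic globin, Hbb-bh1, read 4.13 and 6.17 FPKM and was listed at 0 in all 8 P1 libraries. Both embryonic globins were thus far above every newborn sample. Liver genes summed to 319 and 377 FPKM against 35.3 to 133 at P1, with 17 of 20 above the range. Albumin (Alb) read 37.6 and 39.4 FPKM, against 0.0278 to 2.74 (median 0.104), a log2 difference of 4.81 (limma, adjusted p = 3.8e-05). Serpina6, which encodes the liver-made carrier of glucocorticoids in blood, read 25.7 and 32.2 FPKM against 0 to 0.342 (median 0.0574). The groups did not overlap for either gene, and both genotypes were alike. Afp, the fetal counterpart of albumin, was an exception: its 39.8 and 41.2 FPKM fell inside a P1 span of 3.53 to 45.1.

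Striated muscle and adrenal genes were also high in both embryos, and pancreas genes only in part. All 9 skeletal muscle genes lay above the range, beside 13.4% of all tested genes. Their sums were 200 and 181 FPKM against 12.5 to 76.3. Myh3, the embryonic myosin heavy chain, read 22.2 and 20.4 FPKM, against 0.0358 to 10.9 (median 0.0838). Adrenal and steroid synthesis genes, a list chosen after values were seen, summed to 97.0 and 82.5 FPKM against 27.5 to 42.3, with 7 of 9 above the range and 1 below. Hsd3b1, a dehydrogenase of steroid synthesis, read 18.1 and 14.0 FPKM against 0.0998 to 0.428 (median 0.218). Cyp21a1, the steroid 21-hydroxylase, read 9.47 and 11.0 FPKM against 0.0325 to 0.205 (median 0.0701). Neither steroid enzyme overlapped its P1 values. Of 20 exocrine pancreas genes 5 lay above the range, and their sums of 175 and 241 FPKM lay inside a P1 span of 33.3 to 291. The part of these tissues in the results on other gene groups was not tested, and fewer cells of a type and less RNA per cell cannot be told apart in whole tissue.

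Several lung and heart genes were high in 1 of the E14.5 libraries only, and others in both. In the percc1-/- whole gut, the surfactant gene Sftpc read 27.0 FPKM, against 0.07 in the wild-type embryo and 0 to 0.131 at P1. Tbx4 and Tbx5, transcription factors of the lung and heart fields, read 7.85 and 8.67 FPKM in percc1-/-, against 0.114 and 0.595 in wild type. Atrial Nppa read 20.8 FPKM in percc1-/- and 0.271 in wild type, and the cardiac myosin-binding gene Mybpc3 read 15.8 and 0.176. For these 5 genes the percc1-/- library stood far above the wild-type embryo. Wild-type Tbx5 and Mybpc3 also exceeded their P1 values, of at most 0.291 and 0.12 FPKM, at low levels. The summed lung list was 87.8 FPKM in percc1-/- and 27.2 in wild type, against 23.8 to 54.4 at P1; the heart list was 427 and 168, against 20.7 to 86.6. Of 20 tested heart genes 13 lay above the range in both embryos and none below. Of 7 lung genes 3 lay above and 1, Slc34a2, below. Over all tested genes these shares were 13.4% and 13.3%. Slc34a2 overlapped the P1 range on the values as deposited and with equal sums. Myl2 and Myl3, cardiac myosin light chains, read 37.3 and 23.8 FPKM in percc1-/- and 5.50 and 4.38 in wild type, against at most 0.0713 and 0.0588 at P1. Of the lung list, Lpcat1 read 11.9 and 14.0 FPKM against 3.65 to 8.15, and Nkx2-1 read 4.97 and 1.001 against 0.539 to 0.769. Actc1, the cardiac actin gene that embryonic skeletal muscle also uses, read 41.9 and 28.4 FPKM against 0.532 to 16.7 (median 5.91). Leaving out the lung, heart, skeletal muscle and cartilage lists and every gene at least 4-fold higher in the percc1-/- embryo left 1761 genes above the range and 1774 below. Taking the wild-type embryo alone, 2648 genes lay above and 2525 below, since 1 value is easier to place outside the range than 2.

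**Figure D2:**
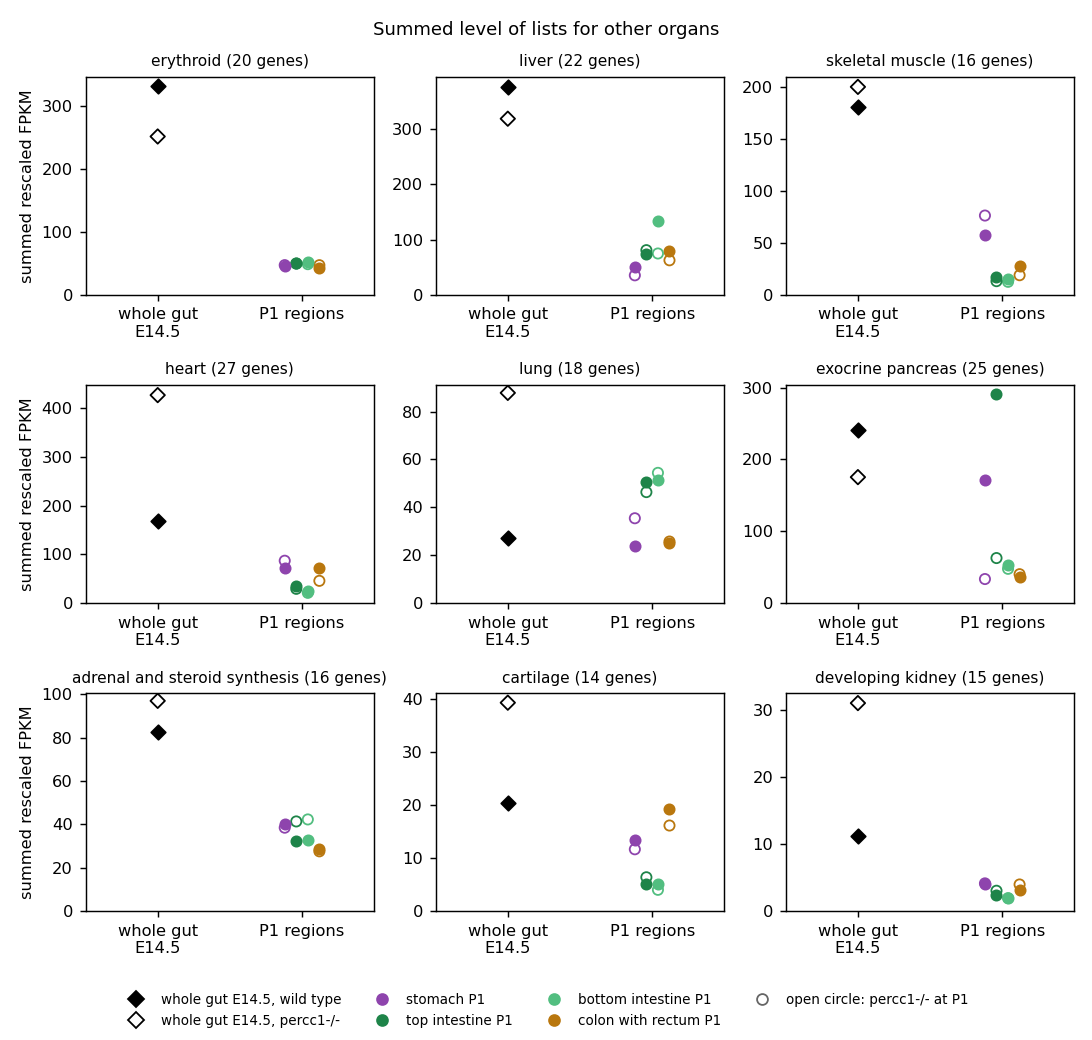
Each panel sums the rescaled FPKM of 1 gene list of a tissue beside the gut in each of the 10 libraries, with whole gut at E14.5 beside the 4 P1 regions, filled for wild type and open for percc1-/-. Red cell, liver, skeletal muscle and adrenal sums were above all 8 P1 values in both embryos; the lung sum was above them in the percc1-/- embryo only (87.8 FPKM against 27.2).

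Gut epithelial genes were present in both embryos. Of 7 epithelial genes used to check the label, none lay above the P1 range and 1 below, beside 13.4% and 13.3% of all genes. Limma called 5 lower, beside 16.9% of all genes. Epcam, an epithelial adhesion gene, read 16.8 and 16.2 FPKM against 15.7 to 33.7 (median 27.6), with a log2 difference of -0.59 (limma, adjusted p = 0.0037). Cdx2, the intestinal homeobox factor, read 4.28 and 6.70 FPKM, between the lowest P1 value of 0.186, in wild-type stomach, and the P1 median of 15.3. Measured as the median absolute log2 difference over all genes, the embryonic gut was nearest to P1 colon with rectum, at 0.292 to 0.324. It was 0.336 to 0.394 from P1 stomach and 0.452 to 0.519 from the top and bottom intestine. The E14.5 pair differed from each other by 0.181, and the P1 pairs of 1 region by 0.209 to 0.245.

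Genes of cell division were higher in the embryonic gut almost as a block. Of 52 tested cell cycle genes, 40 lay above the P1 range and 1 below, against 13.4% and 13.3% of all genes, and limma called 39 higher and 1 lower. Their median log2 difference was 0.90, against -0.0018 over all genes. In 35 of the 40 the E14.5 values also exceeded all 22 later libraries. The count above the range was 39 on the values as deposited and 44 with every library scaled to the same sum. Red cell precursors and fetal liver divide too, and their summed genes were 251 to 331 and 319 to 377 FPKM in these libraries; their part in the result was not tested.

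The promoters of 4 of these genes, chosen because they hold both of 2 short elements that many mitotic genes share, are shown with that of the 1 that was lower. One is the cell cycle homology region (CHR), which the DREAM and MuvB complexes bind, and the other is the CCAAT box, which NF-Y binds. The sequences are RefSeq's on GRCm38.p6, from 250 bases before to 50 after the start, 5′ to 3′ on the gene's strand, with CHR (TTTGAA or, on the other strand, TTCAAA) and CCAAT (or ATTGG) in capitals. The windows are chr10:69352863-69353162 (minus strand) for Cdk1, chr9:70421505-70421804 (minus strand) for Ccnb2, chr4:118437294-118437593 (minus strand) for Cdc20, chr11:99024140-99024439 (minus strand) for Top2a and chr17:29090729-29091028 (plus strand) for Cdkn1a.
Cdk1: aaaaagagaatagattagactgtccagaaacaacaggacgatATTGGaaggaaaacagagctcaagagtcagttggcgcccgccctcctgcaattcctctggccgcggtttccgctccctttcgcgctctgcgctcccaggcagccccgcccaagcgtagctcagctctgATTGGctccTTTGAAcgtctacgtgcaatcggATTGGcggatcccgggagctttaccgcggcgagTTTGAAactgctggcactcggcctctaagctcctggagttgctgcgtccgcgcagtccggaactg
Ccnb2: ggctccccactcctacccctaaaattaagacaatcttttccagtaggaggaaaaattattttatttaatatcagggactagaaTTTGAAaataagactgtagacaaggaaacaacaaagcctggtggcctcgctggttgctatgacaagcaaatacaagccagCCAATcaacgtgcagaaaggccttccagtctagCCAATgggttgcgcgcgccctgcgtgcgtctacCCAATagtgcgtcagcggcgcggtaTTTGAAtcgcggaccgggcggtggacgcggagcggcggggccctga
Cdc20: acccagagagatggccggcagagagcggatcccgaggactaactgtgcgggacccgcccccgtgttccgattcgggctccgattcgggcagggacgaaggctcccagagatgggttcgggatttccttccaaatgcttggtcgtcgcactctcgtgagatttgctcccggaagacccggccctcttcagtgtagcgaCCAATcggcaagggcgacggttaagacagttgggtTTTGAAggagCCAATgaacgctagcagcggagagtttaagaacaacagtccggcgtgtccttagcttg
Top2a: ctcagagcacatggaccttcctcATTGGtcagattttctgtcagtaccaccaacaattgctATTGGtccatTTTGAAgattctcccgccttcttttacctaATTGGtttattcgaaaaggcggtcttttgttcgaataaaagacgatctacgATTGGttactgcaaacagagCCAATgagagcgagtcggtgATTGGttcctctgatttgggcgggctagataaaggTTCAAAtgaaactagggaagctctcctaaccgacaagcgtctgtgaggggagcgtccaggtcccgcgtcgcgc
Cdkn1a: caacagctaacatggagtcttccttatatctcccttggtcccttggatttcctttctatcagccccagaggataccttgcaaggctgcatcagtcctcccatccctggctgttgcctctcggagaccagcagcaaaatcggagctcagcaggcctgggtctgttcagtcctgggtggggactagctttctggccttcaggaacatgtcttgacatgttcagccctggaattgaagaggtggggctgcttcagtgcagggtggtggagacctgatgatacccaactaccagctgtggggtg
Among the 34 of 40 higher cell cycle genes with a promoter in the table, 44.1% held a CHR, 76.5% a CCAAT box and 44.1% both. Among the 43 of all 52 tested cell cycle genes with a promoter, higher or not, the shares were similar at 44.2%, 69.8% and 41.9%. Over the 9452 tested genes with a promoter those shares were 12.2%, 38.4% and 5.11%, and over all 27025 promoters it was 18.1%, 37.9% and 7.12%. Among all 1259 higher genes with a promoter 9.45% held both, and among 1272 lower genes 3.77%. The windows of Ccnb1 and Bub1, which were also read, held a CCAAT box and neither TTTGAA nor TTCAAA. No other letters were searched as a CHR. The Cdkn1a window held neither set of letters. A match is a description of these letters and not of binding.

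Of the mitotic kinases, cyclins and their partners, 4 are given in full. Cdk1, the kinase that drives entry into mitosis, read 21.5 FPKM in percc1-/- and 20.7 in wild type at E14.5, against 4.86 to 12 (median 7.61) at P1. Its log2 difference was 1.34 (SE 0.27; limma, adjusted p = 0.011). Ttk, a kinase of the spindle checkpoint, read 14.3 and 16.3 FPKM against 2.30 to 5.46 (median 3.82), a difference of 1.82 (SE 0.17, adjusted p = 0.00069). In neither kinase did the embryonic and newborn values overlap, and both genotypes stood together. Ccnb2, a mitotic cyclin, read 17.1 and 15 FPKM against 5.54 to 11.1 (median 8.61). Cdc20, which activates the anaphase-promoting complex, read 20.9 and 16.7 FPKM against 5.28 to 13.4 (median 9.09). Both lay clear of every P1 sample, by a smaller margin than Ttk.

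The markers of dividing cells and of DNA synthesis were higher as well. Mki67, the Ki-67 antigen, read 28.3 and 28.9 FPKM against 11.1 to 19.2 (median 17.6), a difference of 0.82 (SE 0.13; limma, adjusted p = 0.0051). Top2a, a topoisomerase that untangles chromosomes, read 28.4 and 31.6 FPKM against 10.5 to 19.3 (median 18.3), a difference of 0.88 (SE 0.15, adjusted p = 0.0067). Each embryo exceeded each newborn region for both genes. Ccne1, the G1/S cyclin, read 9.94 and 13.4 FPKM against 2.82 to 6.87, and E2f2, a transcription factor of S phase, read 8.32 and 8.05 against 1.23 to 3.63. Pcna, the DNA clamp, was the mildest of those named, with 27.2 and 28.6 FPKM against 17.7 to 24.3 and a difference of 0.42 (adjusted p = 0.038). The exception was Cdkn1a, which encodes the p21 inhibitor of cyclin-dependent kinases. It read 3.78 and 4.82 FPKM against 5.65 to 16.9 (median 8.51), a difference of -0.96 (SE 0.21, adjusted p = 0.016), and lay below every postnatal library. The cyclin D genes Ccnd1 and Ccnd2 and the inhibitor gene Cdkn1b lay inside the P1 range.

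**Figure D3:**
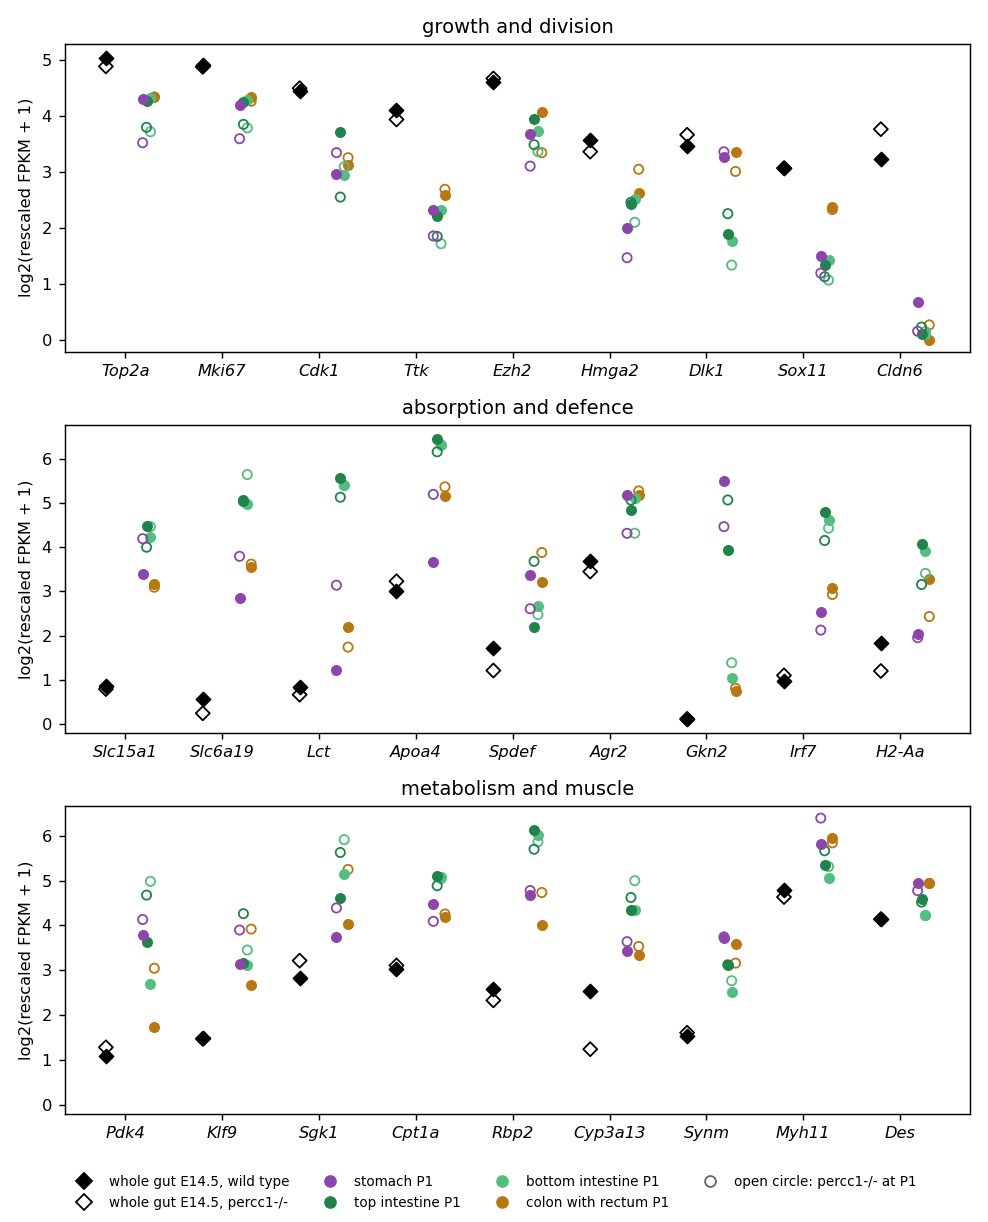
Points show log2(rescaled FPKM + 1) of 27 named genes in the 2 whole gut E14.5 libraries (black) and the 8 P1 libraries (coloured by region), filled for wild type and open for percc1-/-, in 3 panels. Growth genes such as Ttk and Cdk1 had both embryos above all P1 points, and absorptive, defence, metabolic and muscle genes such as Slc15a1, Irf7 and Sgk1 had both below.

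Histone and ribosomal protein genes stood above the range in larger numbers than limma could call. Of 38 replication-dependent histone genes 29 lay above the P1 range and none below, beside 13.4% and 13.3% of all genes. Limma called 12 higher, beside 13.1%, and the median difference was 0.46. On the values as deposited 20 lay above, beside 1576 of all 13346 genes. Hist1h1a, a linker histone gene, read 38.6 and 33.1 FPKM against 15.7 to 26.5 (median 24.7), a difference of 0.68 (limma, adjusted p = 0.025). These genes are near-identical copies whose fragments may be shared between them, so they are not 29 separate observations. Of 63 ribosomal protein genes 21 lay above the range, beside 13.4% of all genes. Limma called 5 higher, a smaller share than the 13.1% of all genes, and the median was only 0.14. The count above the range depends on the scaling. It was 6 on the values as deposited, beside 1576 of all 13346 genes, and 35 with equal sums, beside 2282 of 13477. Rps24 had the largest difference among those above the range, 0.62 (adjusted p = 0.012), from 48.5 and 38.0 FPKM against 22.6 to 33.3.

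Several chromatin and RNA-binding factors of fetal tissue were higher, while Lin28a, Lin28b and Sall4 read at most 2.50 FPKM. Of 12 tested members 7 lay above the range, beside 13.4% of all genes, and none below. Limma called 8 higher, beside 13.1%, and the median was 0.72. Ezh2, the methyltransferase of the Polycomb complex, read 24.4 and 23.4 FPKM against 7.6 to 15.7 (median 11.0), a difference of 1.05 (SE 0.15; adjusted p = 0.0033). Hmga2, a chromatin protein of fetal growth, read 9.28 and 10.9 FPKM against 1.77 to 7.27 (median 4.45), a difference of 1.14 (SE 0.20, adjusted p = 0.0068). The embryos lay above every newborn and every later library for both. Uhrf1 and Dnmt1, which keep DNA methylation through replication, differed by 0.91 and 0.59. Lin28b, which blocks maturation of the let-7 microRNAs, had a mean under the filter and was not tested: it read 1.13 and 2.50 FPKM against 0.104 to 0.263. Lin28a at 0.253 and 0.242 and Sall4 at 0.527 and 0.898 were also above their P1 values, of at most 0.121 and 0.118. The RNA-binding gene Igf2bp3 overlapped, with 14.7 and 24.2 FPKM against 13.6 to 22.9.

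Imprinted growth genes were higher in part, and Igf2 was not among those that passed. Of 21 tested genes 8 lay above the range, beside 13.4% of all genes, and none below. Limma called 8 higher, beside 13.1%, and the median was 0.41. Slc38a4, an amino acid transporter, read 16.6 and 15.6 FPKM against 1.55 to 7.56 (median 3.28), a difference of 1.93 (SE 0.16, adjusted p = 0.00044). Peg10, a gene derived from a retrotransposon, read 13.04 and 14.53 FPKM against 2.06 to 5.48 (median 4.22), a difference of 1.64. Dlk1, a membrane relative of the Notch ligands, read 11.7 and 9.997 FPKM against 1.53 to 9.26 (median 5.41), a difference of 1.03 (SE 0.19, adjusted p = 0.0073). Slc38a4 and Peg10 were well separated from P1, and Dlk1 by under 1 FPKM. Asb4 and Zim1 differed by 1.72 and 1.49. Igf2, the growth factor, read 32.7 and 31.9 FPKM against 21.2 to 32.5 (median 28.9), a difference of 0.21 (adjusted p = 0.14), so the wild-type embryo fell inside the P1 range. H19 shares a record with a microRNA and was left out of the test; that record read 56.5 and 52.7 FPKM against 43.7 to 54.7. Fetal liver, muscle and adrenal tissue also use several of these genes, and their part in the result was not tested.

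Hedgehog, Wnt, BMP, FGF and Notch genes mostly stayed within the newborn range, as did 9793 of all 13359 tested genes. Over all genes 13.4% lay above the range and 13.3% below. Hedgehog ligands come from gut epithelium and act on the mesenchyme beneath. Of 16 Hedgehog genes 3 lay above the range and none below, with 5 called higher and 1 lower by limma. The 2 ligands went opposite ways. Shh read 5.46 and 3.43 FPKM against 0 to 3.89 (median 0.505), a difference of 1.72 (SE 0.38, adjusted p = 0.015), in which only the wild-type stomach of the 8 P1 samples reached the lower embryo. Ihh read 2.37 and 4.22 FPKM against 1.92 to 14.0 (median 6.09), a difference of -0.75 (adjusted p = 0.031). Both ligands overlapped between the ages. The transducer Smo lay above, at 12.9 and 11.6 FPKM against 3.73 to 11.4 (median 7.40; difference 0.65, adjusted p = 0.019), but overlapped on the values as deposited and against later libraries, while the receptor Ptch1 and the target Gli1 lay inside the range.

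Among the ligands of the other pathways, Bmp2 was lower. It read 1.60 and 2.71 FPKM against 3.89 to 14.1 (median 8.4), a difference of -1.53 (SE 0.29; limma, adjusted p = 0.0094), and both embryos lay below all 30 postnatal libraries. Bmp7 differed by -0.82 and the decoy receptor Bambi by 0.70, and these 3 were the BMP genes outside the range of 21 tested; Bmp7 overlapped on the values as deposited, with equal sums and against all 30 postnatal libraries. In the Wnt list 1 of 25 genes lay outside the range: Rnf43, a ligase that removes Wnt receptors, read 5.63 and 4.89 FPKM against 8.02 to 17.2 (median 11.5; difference -0.99, adjusted p = 0.015). The Wnt inhibitor gene Sfrp2 was called higher at 1.28 with overlapping values. Etv5, a target of FGF signalling, read 11.3 and 9.998 FPKM against 1.95 to 4.47 (median 3.31), a difference of 1.46 (SE 0.15, adjusted p = 0.00094), with no overlap. Fgf10, a mesenchymal growth factor, differed by 1.05 (adjusted p = 0.017) and overlapped. Fgf15, the ileal hormone of bile acid feedback, was listed at 0 in both embryos and at 0.0316 to 10.6 FPKM in P1. In the Notch list 2 of 17 genes lay above the range, Hey2 at 0.84 and Mfng at 0.75, near the 13.4% of all genes. The median differences were 0.45 for Hedgehog, 0.14 for Wnt, -0.12 for BMP and 0.12 for Notch. For FGF and PDGF genes it was -0.03, which turned to 0.05 with every library scaled to the same sum.

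Retinoid genes lay on both sides of the P1 range. Rbp2, the retinol carrier of enterocytes, read 4.03 and 5.01 FPKM against 15 to 69.0 (median 38.7), a difference of -2.78 (SE 0.20, adjusted p = 0.00028). The retinol and retinal dehydrogenases Dhrs9 and Aldh1a3 differed by -2.34 and -1.98. Crabp1, which binds retinoic acid in embryonic tissue, was higher at 6.71 and 5.46 FPKM against 0 to 2.34 (median 0.379), a difference of 2.14 (SE 0.20, adjusted p = 0.00069). All 4 were picked from the genes outside the range, so none overlapped. Rbp4, the retinol carrier of blood, was also higher, by 2.09; the liver makes it, and liver genes were high in both embryos. Of 15 retinoid genes 2 lay above and 4 below the range, beside 13.4% and 13.3% of all tested genes.

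Regional transcription factors kept a mixed level in the whole gut. Of 46 tested 2 lay above the range and 4 below, fewer than the 13.4% and 13.3% of all genes, and limma called 7 higher and 11 lower. Factors that mark stomach or duodenum lay between regions: Sox2 read 2.33 and 3.73 FPKM against 0.127 to 8.95, Barx1 3.51 and 4.92 against 0.0388 to 14.8, and Pdx1 1.03 and 2.06 against 0 to 5.70. Factors of mature epithelium were lower. Creb3l3, a factor of lipid handling, read 1.24 and 2.51 FPKM against 4.99 to 46.9 (median 26.7), a difference of -2.82 (SE 0.28, adjusted p = 0.00092). Klf4, which holds epithelial cells out of division, read 4.38 and 5.84 FPKM against 9.58 to 23.5 (median 12.5), a difference of -1.26 (SE 0.18, adjusted p = 0.0031), and Elf3 differed by -1.04. Creb3l3 and Klf4 were separated in every sample. Sox11, a factor of embryonic progenitors and neurons, was higher, at 7.39 and 7.35 FPKM against 1.10 to 4.18 (median 1.62), a difference of 1.52 (SE 0.15, adjusted p = 0.00082). Of 16 Hox genes none lay outside the range and limma called 1 higher, Hoxb2, at an adjusted p of 0.045; 4 different regions, each with its own Hox set, make up the P1 range.

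Stem and progenitor markers did not move as 1 group. Lgr5, the adult crypt stem cell receptor, read 1.64 and 2.05 FPKM, inside 1.01 to 3.63 (median 2.67). Olfm4, a stem cell marker in other species and a Notch-linked gene in mouse, read 1.11 and 1.88 FPKM against 2.80 to 26.5 (median 14.7), a difference of -2.44 (SE 0.41, adjusted p = 0.0059). Cdca7, which is tied to DNA replication, was higher at 17.1 and 17.2 FPKM against 6.67 to 11.3. In 17 crypt genes 2 lay above and 4 below the range, beside 13.4% and 13.3% of all genes. Their median of -0.04 turned to 0.04 with equal sums. Genes of cultured fetal progenitors also split: Bex1 was higher by 1.5 (adjusted p = 0.014) and Ly6a, which encodes the Sca-1 antigen, lower by -1.58 (adjusted p = 0.0067), from 3.46 and 1.46 FPKM against 4.72 to 25.6.

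Claudins, the proteins that set the permeability of tight junctions, included genes on both sides of the P1 range. Cldn6, a claudin of embryonic epithelia, read 12.6 and 8.36 FPKM against 0 to 0.606 (median 0.117), a difference of 3.28 (SE 0.21, adjusted p = 0.00016). Cldn10 read 5.92 and 6.67 FPKM against 0.149 to 2.46 (median 0.881), and Cldn13 read 4.76 and 7.92 against 0 to 0.107 (median 0). Cldn13 is known from red cell precursors, whose genes were high in both embryos. Each of these 3 was far above every newborn sample. Other claudins were lower: Cldn4 read 7.02 and 7.53 FPKM against 11.0 to 25.1 (median 16.9), a difference of -1.13 (SE 0.16, adjusted p = 0.0035), and Cldn23 differed by -0.90. Cldn2 and Cldn15, the pore claudins of the intestine, were called lower by limma at -1.70 and -1.53 while overlapping the P1 values. Of 15 claudins 3 lay above and 2 below the range, near the 13.4% and 13.3% of all tested genes.

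Most genes of the absorptive cell were called lower than in the newborn by limma. Of 58 tested, 16 lay below the P1 range, beside 13.3% of all genes, and none above. Limma called 43 lower, beside 16.9%, and none higher, with a median difference of -1.56. The wild-type P1 stomach was the lowest newborn sample for 48 of the 58. Without both stomach libraries, a choice made after seeing the data, 43 of the 58 lay below the range. Fewer values make a narrower range, and 2511 of all 13202 genes tested then lay below it. The sums of the list were 328 to 421 FPKM at E14.5 and 331 to 2144 (median 1316) at P1.

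The brush border transporters Slc6a19 and Slc15a1 were low at E14.5. Slc6a19, the main neutral amino acid transporter of the brush border, read 0.181 and 0.483 FPKM against 6.22 to 49.2 (median 21.7), a difference of -3.92 (SE 0.24; limma, adjusted p = 0.00013). Slc15a1, the peptide transporter, read 0.728 and 0.799 FPKM against 7.55 to 21.4 (median 16.2), a difference of -3.06 (SE 0.22, adjusted p = 0.00028). For both genes the lowest newborn sample stood far above both embryos. Lct, the lactase that splits milk sugar, read 0.582 and 0.783 FPKM against 1.31 to 46.6 (median 21.0), a difference of -2.98 (SE 0.43, adjusted p = 0.0034). Slc5a1, the sodium-glucose transporter, differed by -2.44, and Slc9a3, the sodium-proton exchanger, by -2.96.

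Lipid handling and gluconeogenesis genes followed. Apoa4, an apolipoprotein of chylomicrons, read 8.4 and 7.04 FPKM against 11.7 to 86.6 (median 55.6), a difference of -2.46 (SE 0.30, adjusted p = 0.0019). Pck1, an enzyme of gluconeogenesis, read 0.425 and 0.531 FPKM against 0.746 to 90.6 (median 31.0), a difference of -3.79 (SE 0.42, adjusted p = 0.0014). Fcgrt, the receptor that carries maternal antibody across the newborn gut, read 10.8 and 9.24 FPKM against 14.0 to 55.1 (median 33.0), a difference of -1.52 (SE 0.18, adjusted p = 0.0017). All 3 were below every newborn sample, by a small margin at the lowest of these. Fabp1, Fabp2 and Apoa1, carriers of fatty acids and lipid, were called lower by limma at -0.80, -1.62 and -0.80, with overlap. Alpi, the intestinal alkaline phosphatase, read 1.95 and 5.98 FPKM against 1.99 to 48.0 (difference -2.39, adjusted p = 0.016). Cps1, Otc, Dpp4 and Cdh17, genes of the citrulline pathway and the brush border, did not pass the test. Liver shares Apoa1, Fabp1 and Cps1 with the gut, and liver genes were 319 to 377 FPKM in sum; its part was not tested.

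Several goblet cell genes and some gastric genes were lower. Of 16 goblet cell genes 7 lay below the P1 range, where 13.3% of all tested genes did, and none above, and limma called 9 lower, with a median of -1.39. Agr2, the disulfide isomerase that folds mucin, read 9.94 and 11.8 FPKM against 19 to 37.8 (median 33.2), a difference of -1.35 (SE 0.22, adjusted p = 0.0052). Spdef, a factor of goblet cell maturation, read 1.31 and 2.31 FPKM against 3.59 to 13.8 (median 6.84), a difference of -1.55 (SE 0.40, adjusted p = 0.027). Both embryos lay below all 30 postnatal libraries for both genes. Tff3, a goblet peptide, did not pass: 11.1 and 11.4 FPKM lay inside 1.74 to 36.1, where the stomach sets the low end. Itln1, an intelectin of goblet and Paneth cells, differed by -2.98 (adjusted p = 0.0065), 1 of 2 lower calls among 5 Paneth genes.

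In the stomach lists, 5 of 23 gland and pit genes and 3 of 17 squamous genes lay below the range, beside 13.3% of all tested genes, and none above, with 8 and 11 called lower by limma. Gkn2, a gastrokine of pit cells, read 0.081 and 0.0723 FPKM against 0.677 to 44.6 (median 7.94), a difference of -2.76 (SE 0.35, adjusted p = 0.0022). Pga5, a pepsinogen gene, read 0.756 and 0.952 FPKM against 4.2 to 104 (median 11.3), a difference of -3.11 (SE 0.49, adjusted p = 0.0047). Both were below even the colon with rectum, the newborn region lowest for them. Atp4a, the proton pump of parietal cells, read 0.347 and 0.309 FPKM inside 0.0908 to 36.4, and Atp4b and Pgc also lay inside. Perp, a desmosome gene of squamous epithelium, read 6.26 and 7.56 FPKM against 11.2 to 32 (median 19.2), a difference of -1.36 (SE 0.11, adjusted p = 0.00044). Krt4, a keratin of the forestomach, did not pass, with 5.58 and 7.76 FPKM inside 0.235 to 48.8.

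**Figure D4:**
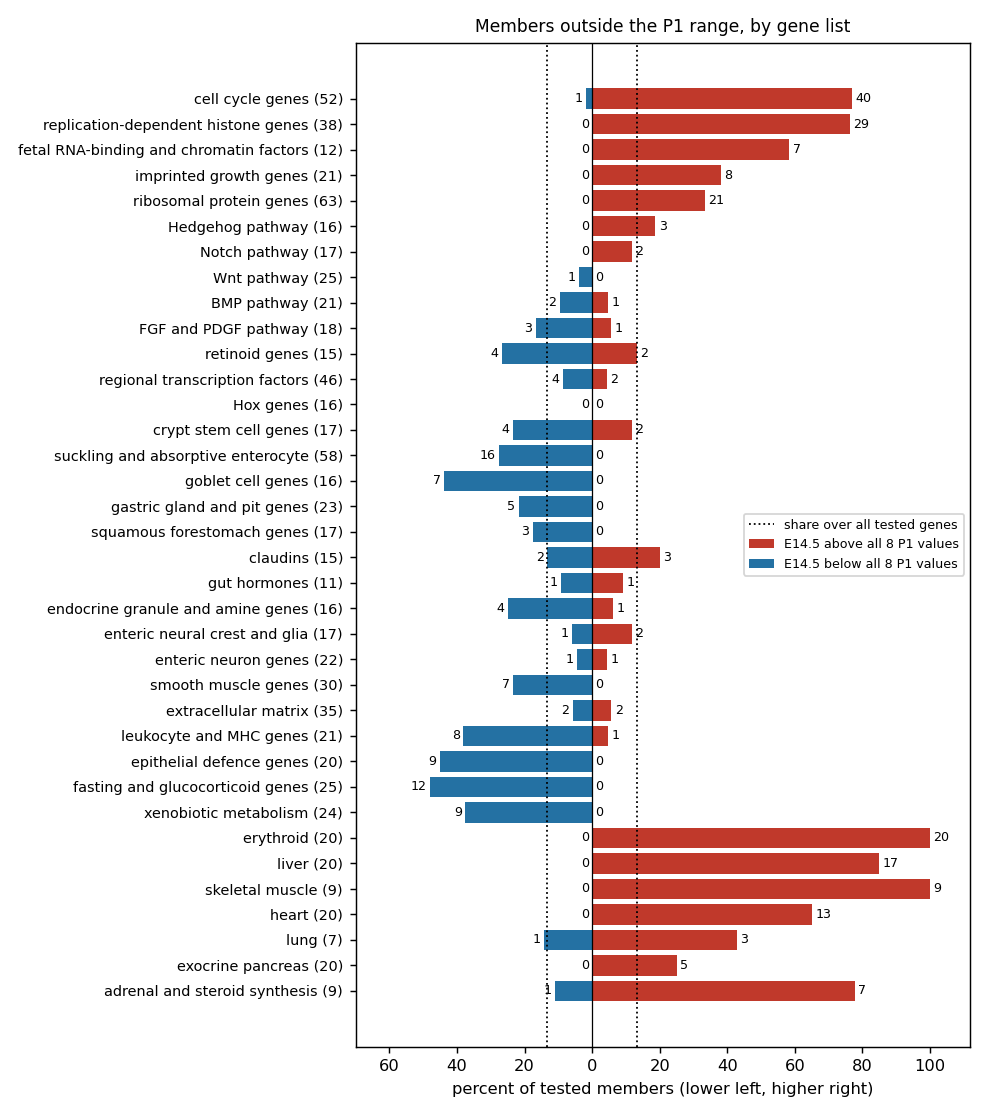
Bars give the percent of tested members of 36 gene lists that lay above (right) or below (left) the range of the 8 P1 values at E14.5, with the number of genes at each bar, the tested members in brackets and dotted lines at the shares over all tested genes (13.4% and 13.3%). Cell cycle, histone, red cell, liver and muscle lists reach far to the right, and enterocyte, goblet, defence, fasting and xenobiotic lists lie to the left.

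Hormone genes are given by genotype, since several were lower in the percc1-/- newborns. Of 11 tested hormone genes 4 had all 4 P1 percc1-/- values below all 4 wild-type values. Ghrl, ghrelin, read 0 FPKM in all 4 P1 percc1-/- libraries and 4.47 to 37.4 in wild type, and at E14.5 it was listed at 0 in percc1-/- and at 4.47 in wild type. Gcg, the glucagon and GLP-1 gene, read 6.96 FPKM in the percc1-/- embryo and 10.3 in wild type, while P1 percc1-/- read 0 to 0.745 and wild type 4.40 to 12. So the percc1-/- embryo stood with the wild-type newborn for Gcg and with the percc1-/- newborns for Ghrl. Pancreatic islets also use Gcg, and the islet genes Ins2 and Iapp were high in both embryos, at 6.49 and 8.66 FPKM and at 3.44 and 5.82; the part of islets in the Gcg value was not tested. Sst, somatostatin, read 0.315 and 1.12 FPKM, against 0 to 1.70 in P1 percc1-/- and 4.48 to 14.4 in wild type. Pyy, peptide YY, read 1.52 and 4.06 FPKM, against 0 to 1.51 and 5.0 to 17.3. In these 2 even the wild-type embryo was below every wild-type newborn. The percc1-/- embryo was below the wild type in 8 of the 11 hormone genes, some by little, as in Cck (1.01 and 1.15 FPKM). The matching shares of all tested genes were not counted, for the embryos or for P1, so neither count has a background. With 1 pair of embryos, whether the effect of genotype differs by age was not tested. One P1 percc1-/- library, the bottom intestine, is the one with a record inside the deleted interval.

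Between the ages most hormone genes overlapped, and limma called 1 higher and 1 lower of 11. Tac1, the substance P gene of neurons and endocrine cells, read 1.28 and 1.09 FPKM against 4.53 to 15.1 (median 5.71), a difference of -1.79 (SE 0.22, adjusted p = 0.0019). Iapp, amylin, was the higher one at 1.65 (adjusted p = 0.0087). Genes of secretory granules and amines were lower in part, with 4 of 16 below the range and 1 above. Over all genes these shares were 13.3% and 13.4%. Chga, chromogranin A, read 5.18 and 4.80 FPKM against 5.81 to 19.7 (median 10.8), a difference of -1.04 (SE 0.24, adjusted p = 0.017). Tph1, the enzyme of gut serotonin synthesis, read 0.254 and 0 FPKM against 0.264 to 10.3 (median 3.59), a difference of -2.0 (SE 0.26, adjusted p = 0.0025). Scg2, a secretogranin, differed by -0.99. Chga and Tph1 lay below every postnatal library, but Chga overlapped the P1 range on the values as deposited, and Tph1 on those and with equal sums. Neurog3, the factor that starts endocrine fate in gut and pancreas, had a mean under the filter and was not tested: it read 2.25 and 3.46 FPKM against 0.205 to 0.583 at P1, and both embryos were above all 8 newborn samples.

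Few neural genes lay outside the P1 range. Dcx, doublecortin of young neurons, read 4.22 and 2.45 FPKM against 0.687 to 2.03 (median 1.03), a difference of 1.0 (SE 0.18, adjusted p = 0.0074). Edn3, the ligand that keeps crest cells dividing, differed by 0.91 (adjusted p = 0.0036). Both lay above all newborn samples, Dcx by little. The transmitter genes Vip and Nos1 were called lower by limma at -1.20 and -1.09 (adjusted p = 0.019 and 0.012) with overlapping values. Ret, the receptor that guides crest cells into the gut, read 2.70 and 4.93 FPKM against 4.06 to 7.76 (median 7.02), a difference of -0.64 (adjusted p = 0.038), and also overlapped. The lineage factor Sox10 lay inside the range. Of 17 crest and glia genes 2 lay above and 1 below, and of 22 neuron genes 1 above and 1 below, shares under the 13.4% and 13.3% of all tested genes.

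Several contractile smooth muscle genes were lower, and the count depends on the scaling. Of 30 tested, 7 lay below the P1 range, beside 13.3% of all genes, and none above. Limma called 9 lower, beside 16.9%, and 1 higher, and the median was -0.27. On the values as deposited 5 lay below, beside 1518 of all 13346 genes. With equal sums 3 lay below, beside 1462 of 13477. All 7 that lay below on the rescaled values were also below every later library. Myh11, the smooth muscle myosin, read 23.8 and 26.8 FPKM against 32.1 to 83.1 (median 52.7), a difference of -0.96 (SE 0.14, adjusted p = 0.0038). Synm, an intermediate filament gene, read 2.05 and 1.88 FPKM against 4.75 to 12.4 (median 7.83), a difference of -1.65 (SE 0.15, adjusted p = 0.00074). Actg2, enteric actin, differed by -0.66 and Des, desmin, by -0.51, the latter from 16.6 FPKM in both embryos against 17.6 to 30.1. Des overlapped on the values as deposited, and both Des and Actg2 with equal sums. Acta2, alpha actin, lay inside at 32.4 and 30.9 FPKM against 29.5 to 73.7. Kcnn3, a potassium channel of interstitial pacing cells, was lower by -1.15 (adjusted p = 0.0066), while Kit, their receptor, lay inside at 6.79 and 7.39 FPKM against 4.05 to 10.1. Striated muscle also uses Des and Tpm1, and its genes summed to 181 to 200 FPKM in the embryos; its part in the result was not tested.

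Matrix genes moved by little. Of 35 tested 2 lay above and 2 below the range, beside 13.4% and 13.3% of all genes. Limma called 9 higher and 2 lower, beside 13.1% and 16.9%. Col4a1 and Col4a2, which form basement membranes, differed by -0.35 and -0.55; Col4a2 read 16.0 and 14.7 FPKM against 19.6 to 25.7. Col5a2, a fibrillar collagen, read 38.6 and 25.2 FPKM against 10.9 to 24.0 (median 17.8), a difference of 0.82 (SE 0.17, adjusted p = 0.013). Vcan, a proteoglycan of loose embryonic matrix, differed by 1.33 (adjusted p = 0.0016) and overlapped, at 27.3 and 19.3 FPKM against 3.23 to 21.2. Wt1, which marks mesothelium and also kidney and gonad, read 10.1 and 13.2 FPKM against 0.0405 to 12.3 (difference 2.03, adjusted p = 0.0031).

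A number of immune and defence genes were lower at E14.5. Of 21 tested leukocyte and MHC genes 8 lay below the P1 range and 1 above, with 10 called lower. Of 20 epithelial defence genes 9 lay below and none above, with 10 called lower and 1 higher. Over all genes 13.3% lay below, 13.4% lay above and 16.9% were called lower. The medians were -0.81 and -1.36. Irf7, a factor that amplifies interferon responses, read 1.14 and 0.954 FPKM against 3.36 to 26.9 (median 12.1), a difference of -2.56 (SE 0.16, adjusted p = 0.00016). Psmb8, an immunoproteasome subunit, read 1.08 and 1.24 FPKM against 2.44 to 14.6 (median 6.87), a difference of -1.74 (SE 0.15, adjusted p = 0.00045). H2-Aa, an MHC class II chain, read 1.30 and 2.57 FPKM against 2.87 to 16.0 (median 8.37), a difference of -1.52 (SE 0.18, adjusted p = 0.0018). All 3 lay below every postnatal library. Tap1, the peptide transporter of MHC class I, differed by -1.62, and the interferon-induced Oasl2 by -2.47. Reg3b, an antibacterial lectin, read 0.580 and 0.592 FPKM against 0.451 to 47.5 (difference -3.57, adjusted p = 0.0078) and overlapped the lowest newborn sample. The pan-leukocyte gene Ptprc and the macrophage gene Emr1 lay inside the range. Without both stomach libraries 11 of 21 and 12 of 20 lay below, as did 2511 of all 13202 genes.

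Genes of fatty acid oxidation and of the glucocorticoid response were lower at E14.5. Of 25 tested 12 lay below the range, beside 13.3% of all genes, and none above. Limma called 16 lower, beside 16.9%, and none higher, and the median was -0.92. Cpt1a, which admits long-chain fatty acids to mitochondria, read 7.62 and 7.14 FPKM against 16.1 to 33.5 (median 25), a difference of -1.58 (SE 0.12, adjusted p = 0.00028). Sgk1, a kinase that glucocorticoids induce, read 8.29 and 6.07 FPKM against 12.5 to 59.3 (median 29.0), a difference of -1.82 (SE 0.15, adjusted p = 0.00049). Klf9, another glucocorticoid target, read 1.77 and 1.82 FPKM against 5.39 to 18.2 (median 8.95), a difference of -1.97 (SE 0.24, adjusted p = 0.002). The embryos lay below all 30 postnatal libraries for all 3. Pdk4, which spares glucose in fasting, read 1.43 and 1.12 FPKM against 2.33 to 30.6 (median 12.1; difference -2.40). Txnip, an inhibitor of glucose uptake, differed by -0.98. The receptor gene itself, Nr3c1, lay inside the range.

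Xenobiotic and sterol enzymes showed a similar share. Of 24 tested 9 lay below the range, beside 13.3% of all genes, and none above. Limma called 14 lower, beside 16.9%, and the median was -1.17. Without both stomach libraries 15 lay below, as did 2511 of all 13202 genes. Ces2e, a carboxylesterase, read 0.497 and 0.664 FPKM against 1.72 to 29.6 (median 19), a difference of -3.25 (SE 0.36, adjusted p = 0.0014). Sult1b1, a sulfotransferase, read 0.387 and 0.898 FPKM against 3.45 to 20.1 (median 9.83), a difference of -2.71 (SE 0.16, adjusted p = 0.00012). The cytochrome gene Cyp3a13 differed by -2.14. Nr1i2, the receptor that induces such enzymes, was called lower at -1.73 and overlapped narrowly, with 2.34 and 5.87 FPKM against 5.78 to 26.2.

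Other genes were among the 12 widest gaps in each direction. Tceal7 read 11.9 and 12.1 FPKM against 0 to 1.30 (median 0.0599), a difference of 3.44. Plg and Serpinc1, plasminogen and antithrombin of the liver, read 6.99 and 11.1 and 6.44 and 9.74 FPKM and were near 0 at P1. On the lower side, Ttc22 read 0.447 and 0.642 FPKM against 7.97 to 19.8 (median 14.1), a difference of -3.19. Fam3b, a secreted protein of epithelium, read 0.222 and 0.264 FPKM against 4.10 to 18.3 (median 10.6), a difference of -2.95. Sdcbp2 and Mall, membrane scaffold genes, each differed by -2.67, from 1.37 and 1.42 FPKM against 10.5 to 22.4, and from 1.5 and 1.40 against 8.75 to 20.8. Ttc22, Fam3b, Sdcbp2 and Mall were lower than every newborn sample by a wide margin. By the same measure Nespas, Thyn1 and Ccdc77 ranked among the highest and Spsb2, Mettl7b, Lnx1 and Far2 among the lowest, but each was listed at 0 throughout 1 age and overlaps another symbol, so only the listing is given. In all, 93 tested genes were listed at 0 throughout an age, and 29 of them lay outside the range.

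The 2 embryos differed from each other by at least 2-fold in 264 genes. At least 4-fold, 37 genes were higher in percc1-/-, of which 6 were in the heart list and 2 in the lung list, and 19 were listed at 0 in wild type. In the wild type 14 were higher, and 13 of them were listed at 0 in percc1-/-. Cdh16, a kidney cadherin, read 12.2 FPKM in percc1-/- and 0.783 in wild type, and Cyp17a1, the steroid hydroxylase, read 6.19 and 0.183. Developing kidney genes, a list chosen after values were seen, summed to 31.0 and 11.2 FPKM, against 1.92 to 4.12 at P1. Kidney genes, like those of lung and heart, were thus higher in the percc1-/- library. With 1 library per genotype at E14.5 there is no test of these differences.

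Of the genes above the P1 range 950 (53.1%) were also above all 22 later libraries, and of those below it 1099 (61.9%) were also below them. The regions sampled differ between ages, and P20 holds only bottom stomach and bottom intestine. Age and region therefore cannot be told apart in the course of the sums below. The summed cell cycle list was 793 to 814 FPKM at E14.5, 346 to 549 at P1 and 339 to 559 from P5 to P20, so it was lower at P1 and showed no further fall beyond its spread. Imprinted growth genes were 419 to 422 FPKM at E14.5, 236 to 368 at P1, 216 to 277 at P5 and 130 to 160 at P20, and the P20 sums lay below all earlier ones given. Goblet genes were 46.2 to 56.1 FPKM at E14.5, 103 to 241 at P1 and 175 to 312 at P20. Leukocyte and MHC genes were 67.3 to 69.1 FPKM at E14.5, below all 8 P1 sums of 98.1 to 167. Smooth muscle genes were 516 to 524 FPKM at E14.5, inside the P1 span of 497 to 959.

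**Figure D5:**
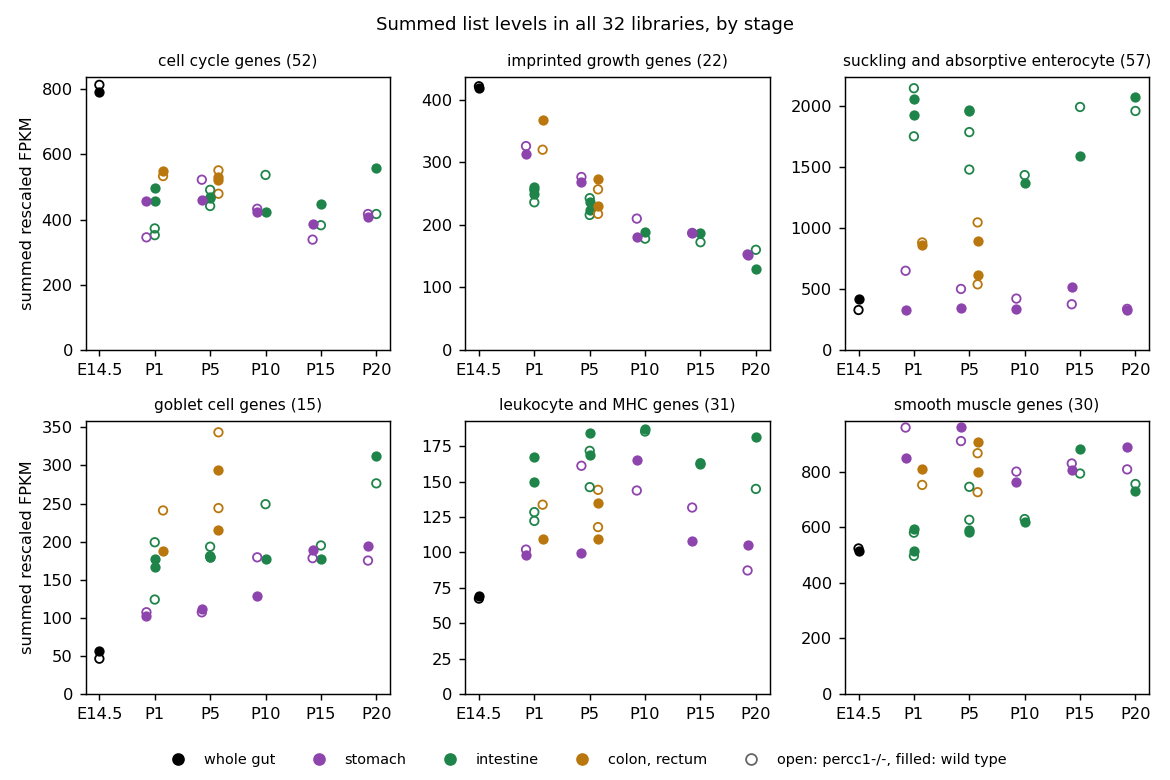
Points are the summed rescaled FPKM of 6 gene lists in each of the 32 libraries by age from E14.5 to P20, with filled points for wild type and open points for percc1-/-. The regions sampled differ between ages. Cell cycle and imprinted sums were highest at E14.5 (793 to 814 and 419 to 422 FPKM), and goblet and leukocyte sums were lowest there (46.2 to 56.1 and 67.3 to 69.1 FPKM).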

How the data were processed

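Total RNA-seq libraries of dissected mouse gut were compared, 2 of whole gut at E14.5 with 8 of P1 regions. The deposited tables give FPKM per gene record, made by the authors with TopHat2 2.0.13, SAMtools 0.1.18 and Cufflinks 2.2.1 on mm9, per the submitters' processing notes; no source used here gives the annotation. The tables hold no counts, so depth is unknown and no counting interval was computed. FPKM of records with 1 symbol were summed per symbol. Symbols in merged records or with a failed status were left out, and H19 was therefore not tested. Libraries were rescaled by the median ratio over 10729 genes above 1 FPKM in every library, genes with a mean under 1 FPKM were left out, and log2(FPKM + 1) was fitted with limma 3.58.1 in R 4.3.3: region-at-age plus genotype, E14.5 against the mean of the 4 P1 regions, 4 residual degrees of freedom, trend and robust on, Benjamini-Hochberg adjustment over 13359 genes. The script was tested on simulated data. Where Cufflinks splits fragments among copies or overlapping genes, their values are uncertain.

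Members and gene lists were chosen with earlier results of these data known, and the adrenal and the kidney list after values were seen. Genes are named by a rule: up to 12 each way with the widest gap between nearest E14.5 and P1 values, up to 4 each way from each list, lung and heart genes highest in the percc1-/- embryo, and a set of known gut genes named whatever their value. Other members named in the text were chosen after their values were seen. Some genes are not reported here.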

Additional observations from a re-analysis of the deposited data

Results flagged for a closer look

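Dixon's criterion takes the gap at the end of a group of values as a share of its range. By it, the highest or lowest of the 8 P1 values stood apart for 22 of 190 named genes, or 11.6%. In 15 of the 22 the sample at that end was a stomach library. The criterion's rate of about 1 in 20 assumes values from 1 population. The P1 values mix gut regions and genotypes, and many genes were picked by their P1 range. That rate is therefore no background here, and an excess of outliers was not tested. A large share can also be a small gap in FPKM: Myl2 read at most 0.0713 FPKM at P1 and Cdh16 at most 0.566. The highest was the wild-type stomach for Plg (gap 0.66 of the range), Cldn6 (0.597), Cldn13 (0.592) and Shh (0.58), and the percc1-/- stomach for Tceal7 (0.638), Myl2 (1), Sln (0.623) and Fgg (0.64). The lowest was the percc1-/- stomach for Serpinc1 (0.545), Foxl1 (0.568) and Ddc (0.726), and the wild-type stomach for Slc34a2 (0.536), Alpi (0.534), Apoa4 (0.537) and Tff3 (0.7). Elsewhere, the wild-type colon with rectum was highest for Cyp21a1 (0.604), the percc1-/- one for Tac1 (0.541) and Itgam (0.773), the wild-type top intestine for Akr1cl (1), S100b (0.619) and Rbpjl (0.545), and the percc1-/- bottom intestine lowest for Cdh16 (0.602).

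Nts, neurotensin, read 0.853 FPKM in the percc1-/- embryo and 0.238 in the wild type, while in all 4 P1 regions percc1-/- was below wild type (0.0765 to 0.492 against 0.193 to 19.1); the difference between the ages was not tested. A record of 1.34 FPKM lay inside the deleted interval in the P1 bottom intestine labelled percc1-/-, where wild-type libraries had none; its source was not tested.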

How the results depend on the processing

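No called difference of a named gene reversed under the alternatives run, while the medians of the FGF and PDGF list, of the crypt list and of all genes changed sign with the scaling. On the FPKM as deposited 191 of the 194 named genes kept limma's direction and call, but Smo, Bmp7, Pdgfa, Chga, Tph1, Cd3d, Slc34a2, Des and Por lost their place outside the P1 range. With equal sums Bmp7, Pdgfa, Spry4, Snap25, Tph1, S100b, Actg2, Msln, Slc34a2 and Des lost it. Scaled to equal sums, 2282 genes lay above the range and 1462 below, and limma called 2337 higher and 1963 lower, with the median of all genes at 0.0748. Higher calls also outnumbered lower ones without the filter on low values, 2287 against 2159, and with P1 as 1 group. Requiring a mean of at least 5 FPKM gave 992 above the range and 894 called higher. Counting only genes 2-fold beyond the range gave 116 above and 74 below, and using the range of all 30 postnatal libraries gave 882 and 1106. Limma called 425 higher and 352 lower when the 8 P1 libraries formed 1 group, since differences between regions then count as error, and 60 of the 194 named genes lost their call. Adding a fold of at least 2 left 533 and 950. Without both bottom intestine libraries 1117 were called higher. Wild-type libraries alone placed 3649 above and 3492 below their 4 P1 values, and percc1-/- libraries alone 3742 and 3739, as fewer values make a narrower range. Leaving out 1 library at a time gave 1863 to 2716 above the range, 1805 to 2708 below, and 362 to 1594 called higher and 681 to 2268 lower by limma. The lowest counts of calls came without the percc1-/- embryo, 362 and 681, where 63 named genes lost their call, and without the wild-type embryo, 910 and 1290, where 29 did; the lone embryo is then assumed to vary like the other groups. No paired analysis was possible because each group held 1 library and the labels carry no replicate numbers that link them. Depth is unknown, and the tables' own bounds can be wide below 1 FPKM: Nppa in the wild-type embryo, 0.254 as deposited, has bounds of 0 to 0.509.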
